A study of Mus musculus with 9 samples.

Results

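Transcripts of the circadian clock were examined in CD8+ T cells from mouse spleens, in 5 libraries of wild-type (WT) cells and 4 libraries labelled as a knockout of the RNA sensor RIG-I (Rig1 KO). The genes were chosen by symbol as the core of the clock: Arntl (BMAL1), Clock, Per1, Per2, Per3, Cry1, Cry2, Nr1d1, Nr1d2 and Dbp. Of these 10, 9 were found among 18188 listed genes. Per3 was not analysed here. All groups share the tissue and the cell type, and genotype is the only difference the labels give. Age, strain, treatment, the design of the knockout allele and the hour at which spleens were collected are not stated in the labels. Titles number the libraries without tying them to animals, so the spread behind each p-value may be technical rather than between animals.

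The clock is a feedback loop of transcription. The proteins of Arntl and Clock pair, bind E-box elements in DNA and switch on the Per, Cry, Nr1d and Dbp genes. PER and CRY proteins then block the pair, and the Nr1d proteins (REV-ERB receptors) repress Arntl, so that in most tissues Arntl transcripts peak when Nr1d1 and Dbp transcripts are low. T cells carry such a clock of their own. Per1 also has a second mode of control, being induced quickly and outside the loop by cAMP, calcium and glucocorticoid signals. Levels of the clock genes side by side therefore bear on whether the groups sat at different clock phases. Since collection times are not given, genotype and hour of collection cannot be told apart.

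Per1 fell 6.05-fold in Rig1 KO, while the other clock genes differed by less. Arntl fell by 0.23 on the log2 scale, and Clock, Per2, Cry1, Cry2, Nr1d1, Nr1d2 and Dbp did not pass the test. The test was limma on log2(TPM + 1), fitted over 10540 genes, with Benjamini-Hochberg adjustment at 0.05; fold changes on this scale are Rig1 KO minus WT and understate changes of low genes. All 9 clock genes passed the filter on low values. Of them, 0 were higher and 2 lower (1 higher and 2 lower at an unadjusted p under 0.05 in the same limma fit). Among all tested genes 45.7% were called, 33.5% higher and 12.2% lower. The median log2 fold change of the clock genes was -0.06, against 0.125 over all tested genes. Scaling moved that median, to 0.013 after median ratio scaling, where 23.7% of genes were higher and 21.5% lower; there 0 clock genes were higher and 3 lower (Per1, Arntl and Cry2). A fold change of about that size thus has a direction that depends on the scaling.

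The libraries were checked first. They held from 15496262 to 17893558 recovered reads. The RIG-I transcript, listed as Ddx58, was at 65.1 ± 2.0 TPM (SD, n = 5) in WT and 33.3 ± 2.04 TPM (SD, n = 4) in Rig1 KO, with no overlap, so that 51.1% of the WT level remained (log2 fold change -0.95, SE 0.055, adjusted p = 4.91e-07). The 7 defining markers of CD8+ T cells summed to between 3445 and 3993 TPM in WT and between 4785 and 5377 TPM in Rig1 KO. All 7 were higher in Rig1 KO, 6 of them without overlap, and 4 were still higher after median ratio scaling. Among all tested genes 28.0% were higher without overlap, and 23.7% were called higher after median ratio scaling. Without that scaling 33.5% of all tested genes were called higher and 12.2% lower, shares that also stand beside the marker counts below. Of 8 listed B cell markers, 7 were lower in Rig1 KO, with sums from 146 to 1040 TPM in WT, highest in WT 5, and from 68.3 to 160 TPM in Rig1 KO. All 4 listed platelet markers were lower (WT libraries at 180 to 242 TPM, Rig1 KO libraries at 31.2 to 39.3 TPM). Of 6 natural killer cell markers 5 were higher, and all 5 basophil and mast cell markers were higher. Of 4 tested erythroid markers 3 were higher, with sums of 73.8 to 196 TPM over the WT libraries and 175 to 318 TPM over the Rig1 KO libraries. Of 9 myeloid markers 1 was higher and 2 lower, and of 2 CD4 T cell markers 1 was lower. In bulk samples, fewer cells of a type and less RNA per cell cannot be told apart. The part of these cell types in the clock gene values was not tested beyond the covariate and the left-out libraries given beside them. That covariate, the B cell marker mean, itself differs between the groups, since all 7 tested B cell markers were lower in Rig1 KO. Adjusting for it can thus also take up or blur a genotype difference, and the 2 cannot be told apart for any gene adjusted below.

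**Figure D1:**
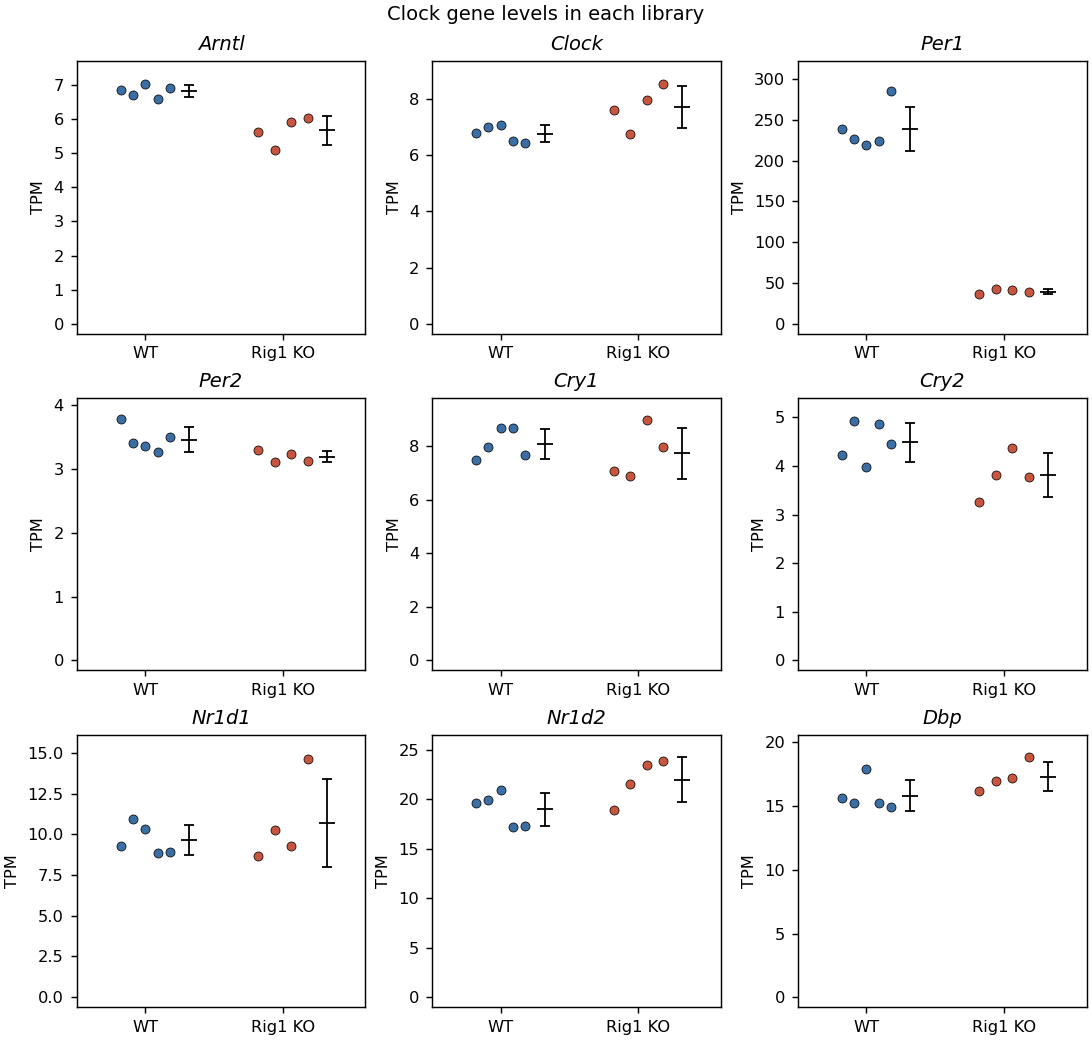
TPM of the 9 clock genes (vertical axes, each from 0) in each of 5 WT (blue) and 4 Rig1 KO (red) libraries, shown in order of replicate number, with the group mean and SD in black. Only Per1 and Arntl show groups that do not overlap, and the Per1 gap, from 219 TPM down to 42.7 TPM, is the wide one.

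The activators of the loop came out on opposite sides of 0. Arntl encodes BMAL1, the partner without which the loop stops. It was at 6.84, 6.70, 7.03, 6.59 and 6.91 TPM in WT 1 to 5 and at 5.63, 5.09, 5.92 and 6.04 TPM in Rig1 KO 1 to 4. Every Rig1 KO library thus lay below every WT library, and Rig1 KO 2 was lowest. The means were 6.81 ± 0.174 TPM (SD, n = 5) and 5.67 ± 0.426 TPM (SD, n = 4), so that Rig1 KO libraries averaged 83.2% of WT. Its log2 fold change was -0.23 (SE 0.070, 95% interval -0.39 to -0.08, adjusted p = 0.0208). By exact permutation over 126 splits (two-sided, on TPM) p was 0.00794, the smallest these splits can give. Groups did not overlap for 2 clock genes, Arntl and Per1, and for 38.1% of all tested genes, 10.1% with Rig1 KO below WT. The call was lost without Rig1 KO 2 (adjusted p = 0.0525), without WT 4 and WT 5 (0.0561) and after adjustment for the B cell marker mean (0.236, log2 fold change -0.22). It was firmer after median ratio scaling (-0.34, adjusted p = 0.000823).

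Clock encodes the histone acetyltransferase that pairs with BMAL1. Its levels were 6.80, 7.02, 7.07, 6.51 and 6.41 TPM in WT and 7.59, 6.76, 7.96 and 8.54 TPM in Rig1 KO. Rig1 KO 2 fell inside the WT range and the other Rig1 KO libraries above it. The log2 fold change of Clock was 0.16 (95% interval -0.01 to 0.33, adjusted p = 0.106), close to the median of all genes. Without Rig1 KO 2 it passed (0.22, adjusted p = 0.0380), while after median ratio scaling it was 0.05 (adjusted p = 0.537).

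Per1 encodes a repressor of the BMAL1 and CLOCK pair. Its levels in WT 1 to 5 were 239, 227, 219, 224 and 286 TPM, and in Rig1 KO 1 to 4 they were 36.0, 42.7, 40.9 and 38.4 TPM. The groups lay far apart, with WT 5 the highest library and the Rig1 KO libraries close together. The means were 239 ± 27.1 TPM (SD, n = 5) and 39.5 ± 2.94 TPM (SD, n = 4), and Rig1 KO libraries averaged 16.5% of WT. This gave a log2 fold change of -2.56 (SE 0.084, 95% interval -2.75 to -2.38, adjusted p = 5.98e-09). Of 10540 tested genes, 43 had a lower log2 fold change. These values rest on 4865 to 5892 recovered reads per WT library and 739 to 936 per Rig1 KO library. For Per1 that value was -2.50 without WT 5 or without WT 4 and WT 5, -2.69 after median ratio scaling and -2.32 after adjustment for the B cell marker mean (adjusted p = 2.22e-06). The exact permutation p was again 0.00794.

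Upstream sequence of Per1 is shown because Per1 is the clock gene that moved most, with Cry1, the other clock gene whose window holds an E-box, and Tef, a gene next to the loop with an E-box, shown with its values known. They are the first 230 of the 250 bases before a RefSeq transcript start on GRCm38.p6, an older build than the authors' GRCm39, none of them inside an exon of GENCODE M21. Capitals mark the E-box CACGTG, the site of the BMAL1 and CLOCK pair, and the 5-base core TGACG (or CGTCA on the other strand) of the cAMP response element.
Per1, chr11:69098699-69098928, plus strand: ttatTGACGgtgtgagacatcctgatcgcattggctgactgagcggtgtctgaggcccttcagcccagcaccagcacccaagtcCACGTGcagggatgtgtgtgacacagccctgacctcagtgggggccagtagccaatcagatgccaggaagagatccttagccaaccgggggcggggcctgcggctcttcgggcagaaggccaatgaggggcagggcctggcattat
Per1, chr11:69099902-69100131, plus strand: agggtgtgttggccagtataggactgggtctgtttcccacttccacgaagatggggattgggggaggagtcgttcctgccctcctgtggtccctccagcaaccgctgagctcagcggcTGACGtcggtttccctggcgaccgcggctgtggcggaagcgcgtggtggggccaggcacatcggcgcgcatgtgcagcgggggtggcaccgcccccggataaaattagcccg
Cry1, chr10:85185075-85185304, minus strand: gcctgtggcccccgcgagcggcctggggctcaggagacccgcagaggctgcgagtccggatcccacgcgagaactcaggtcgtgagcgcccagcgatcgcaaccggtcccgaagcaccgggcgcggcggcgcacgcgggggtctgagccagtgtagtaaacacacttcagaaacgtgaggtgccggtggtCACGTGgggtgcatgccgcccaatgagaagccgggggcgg
Tef, chr15:81811164-81811393, plus strand: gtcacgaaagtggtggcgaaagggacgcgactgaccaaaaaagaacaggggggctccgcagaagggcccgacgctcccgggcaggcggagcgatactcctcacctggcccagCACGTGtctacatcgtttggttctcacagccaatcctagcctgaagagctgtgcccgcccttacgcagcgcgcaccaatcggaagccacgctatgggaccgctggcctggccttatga

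The RefSeq windows used here covered 9 of the 10 clock genes, Per3 included, with 13 windows in all. Per2 had no window in the table used and was not searched. Over the full 250 bases, CACGTG was found for 2 of these genes, Per1 and Cry1, and in 6.02% of 32851 mouse windows. Before the first Per1 start it stood 166 bases upstream, and before the Cry1 start 60 bases upstream. TGACG, searched on both strands, was found for 3 clock genes (Per1, Cry1 and Cry2) and in 17.8% of all windows, before each of the Per1 starts shown. For Cry1 this core stood 8 bases before the start, past the end of the printed stretch, and so is not marked there. The full response element TGACGTCA, which contains that core, was in none of the clock gene windows and in 1.55% of all windows. The D-box TTATGTAA was found for 1 clock gene (Per3) and in 0.819% of all windows. The ROR element core AGGTCA was found for 3 (Clock, Per1 and Nr1d2) and in 14.0% of all windows. Genes with several windows had more chances of a match, so gene counts and window shares are unlike. Variant E-boxes and sites outside these windows were not searched. A match is a description of the letters only. Among the genes next to the loop, CACGTG was also found before Tef, Bhlhe41 and Ciart, the last not analysed here, and no relation between motifs and changes was tested.

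Per2, the close relative of Per1 in the loop, was at 3.77, 3.40, 3.36, 3.26 and 3.50 TPM in WT and at 3.30, 3.11, 3.23 and 3.13 TPM in Rig1 KO. The ranges overlapped through WT 4 and Rig1 KO 1. Its log2 fold change was -0.09 (95% interval -0.25 to 0.08, adjusted p = 0.354). With the added 1, a gene as low as Per2 cannot fall as far on this scale as Per1 did. In TPM, Rig1 KO libraries averaged 92.3% of WT for Per2, against 16.5% for Per1. On the scale of recovered reads, Per2 had 212 to 247 per WT library and 177 to 229 per Rig1 KO library.

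The cryptochromes, which with PER proteins shut off the activators, were a little lower on average and did not pass. Cry1 was at 7.47, 7.97, 8.67, 8.68 and 7.67 TPM in WT and at 7.09, 6.90, 8.97 and 7.96 TPM in Rig1 KO, so Rig1 KO held both the lowest and the highest library. Its log2 fold change was -0.06 (95% interval -0.26 to 0.13, adjusted p = 0.582). Cry2 was at 4.23, 4.92, 3.98, 4.87 and 4.45 TPM in WT and at 3.26, 3.81, 4.38 and 3.78 TPM in Rig1 KO. All but Rig1 KO 3 lay below the WT range. The log2 fold change of Cry2 was -0.19 (95% interval -0.40 to 0.01, adjusted p = 0.114), and it passed after median ratio scaling (-0.29, adjusted p = 0.0164) but was 0.00 after adjustment for the B cell marker mean. Cry2 shares 23417 bases with the gene D930015M05Rik on the other strand. Whether counting used strand is not stated, so reads of such overlapping pairs cannot be told apart.

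The REV-ERB genes, direct targets and repressors of the activators, did not pass. Nr1d1 was at 9.31, 10.9, 10.3, 8.86 and 8.89 TPM in WT and at 8.68, 10.3, 9.26 and 14.6 TPM in Rig1 KO. The Rig1 KO libraries other than Rig1 KO 4 lay within or just below the WT range. The log2 fold change of Nr1d1 was 0.11 (95% interval -0.18 to 0.41, adjusted p = 0.510) and -0.03 without Rig1 KO 4. That library rested on 141 recovered reads (exact Poisson 95% interval 119 to 166, counting error only), and the other 8 libraries on 88 to 118. Nr1d1 shares 1075 bases with Thra on the opposite strand, which was at 10.5 ± 1.02 TPM in WT against 10.9 ± 1.12 TPM in Rig1 KO (adjusted p = 0.670).

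Nr1d2, the other REV-ERB gene, was read more deeply than Nr1d1, with 849 to 1102 recovered reads per WT library and 1058 to 1120 per Rig1 KO library. It was at 19.6, 19.9, 20.9, 17.2 and 17.3 TPM in WT and at 19.0, 21.5, 23.5 and 23.9 TPM in Rig1 KO. All Rig1 KO libraries except Rig1 KO 1 lay above the WT range. Nr1d2 had a log2 fold change of 0.20 (95% interval 0.01 to 0.39, adjusted p = 0.0831). It passed without Rig1 KO 1 (0.26, adjusted p = 0.0294) and was 0.08 after median ratio scaling (adjusted p = 0.458).

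Dbp encodes a transcription factor that carries the rhythm to output genes and is among the strongest cycling transcripts of many tissues. It was at 15.7, 15.3, 17.9, 15.2 and 14.96 TPM in WT and at 16.2, 16.97, 17.2 and 18.9 TPM in Rig1 KO. WT 3 stood inside the Rig1 KO range and the other WT libraries below it. Dbp had a log2 fold change of 0.12 (95% interval -0.03 to 0.28, adjusted p = 0.179), close to the median of all genes. Dbp had 107 to 138 recovered reads per library and shares 737 bases with Sphk2 on the opposite strand, which was higher in Rig1 KO (from 62.3 ± 5.87 to 73.2 ± 3.30 TPM, adjusted p = 0.0210). Exact permutation tests of the 7 clock genes that did not pass gave unadjusted p from 0.0317 (Per2) to 0.595 (Nr1d1).

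**Figure D2:**
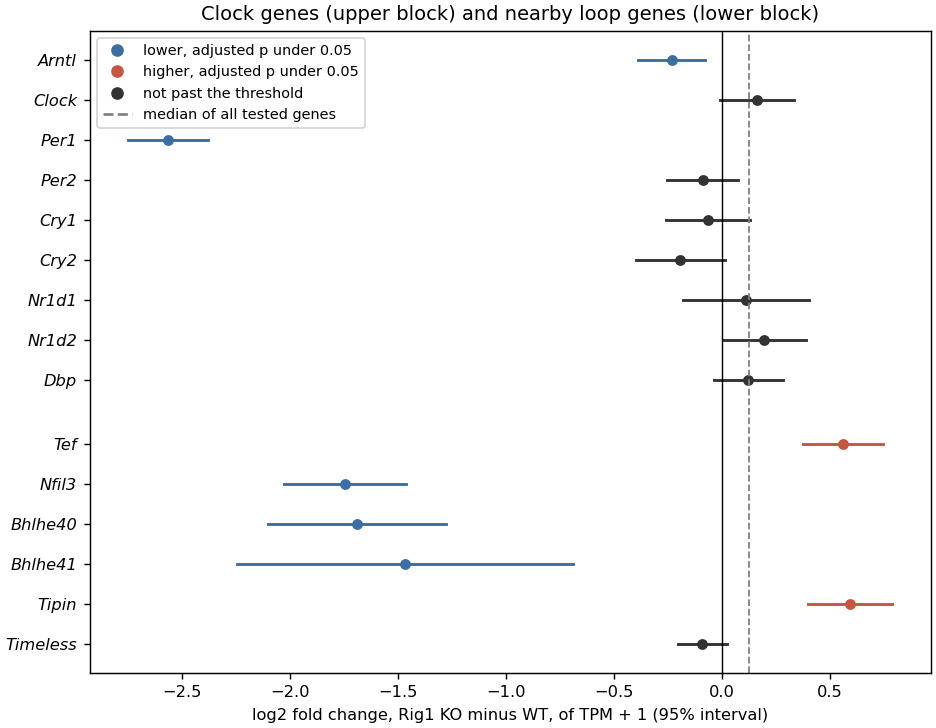
Log2 fold change of TPM + 1 (horizontal axis, Rig1 KO minus WT, with 95% intervals) for the 9 clock genes and, below them, 6 tested genes close to the loop. Per1 (-2.56), Nfil3 (-1.74), Bhlhe40 (-1.69) and Bhlhe41 (-1.47) stand far left, while Nr1d1, Nr1d2, Dbp and Clock lie around the dashed median of all tested genes at 0.125.

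Ratios between clock genes in 1 library do not depend on how libraries are scaled, apart from the added 1. They are given without a test. In a cycling tissue, the ratios of Nr1d1, Nr1d2, Dbp and the Per genes to Arntl vary with the phase. The log2 ratio of Dbp to Arntl (TPM + 1) was 1.09, 1.080, 1.24, 1.098 and 1.01 in WT 1 to 5 and 1.38, 1.56, 1.395 and 1.497 in Rig1 KO 1 to 4, so the groups did not overlap. That of Nr1d2 to Arntl ran from 1.21 to 1.45 in WT and from 1.59 to 1.89 in Rig1 KO, also without overlap. A ratio to Arntl that was higher in Rig1 KO without overlap was found for 58.1% of all tested genes, so these separations are common to the background. The ratio of Nr1d1 to Arntl overlapped (0.32 to 0.63 in WT, 0.55 to 1.15 in Rig1 KO), as did that of Per2 to Arntl (-0.88 to -0.72 and -0.77 to -0.57).

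Against Clock in place of Arntl, the Nr1d1, Nr1d2 and Dbp ratios overlapped between the groups. The log2 ratio of Dbp to Clock averaged 1.11 ± 0.074 (SD, n = 5) in WT and 1.07 ± 0.094 (SD, n = 4) in Rig1 KO. That of Nr1d2 to Clock averaged 1.36 ± 0.068 and 1.40 ± 0.135, and that of Nr1d1 to Clock 0.45 ± 0.077 and 0.40 ± 0.264, in the same order. The ratio of Per2 to Clock was lower in Rig1 KO without overlap (-0.89 to -0.71 in WT, -1.21 to -0.92 in Rig1 KO), as it was for 18.5% of tested genes. Per1 differed against every reference: the difference of its log2 ratio, Rig1 KO minus WT, was -2.33 to Arntl, -2.73 to Clock and -2.50 to Cry1, each without overlap. Lower ratios without overlap were found for 4.71% of tested genes to Arntl and for 7.4% to Cry1. Against Cry1, the ratio of Nr1d2 was higher without overlap (1.14 ± 0.145 in WT, 1.40 ± 0.112 in Rig1 KO), as for 30.5% of tested genes, and those of Per2, Nr1d1 and Dbp overlapped.

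**Figure D3:**
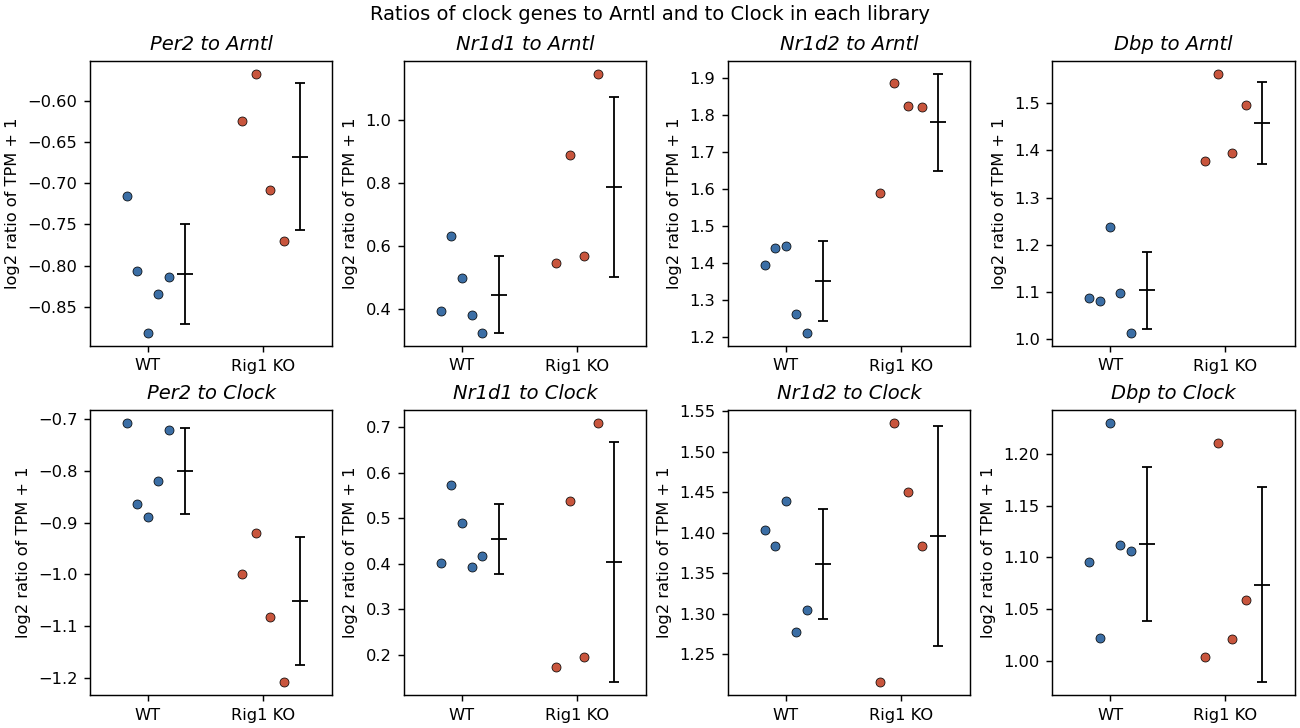
Log2 ratio of TPM + 1 (vertical axes, each with its own range) of Per2, Nr1d1, Nr1d2 and Dbp to Arntl (top row) and to Clock (bottom row) in each WT (blue) and Rig1 KO (red) library, with mean and SD in black. Ratios of Nr1d2 and Dbp to Arntl separate the groups, and the same ratios to Clock overlap.

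Levels of different clock genes were compared per exon length, because the lengths behind the deposited TPM span introns. Whether reads in introns were counted is not stated. If they were, exon lengths overstate genes with long introns, such as Cry1 (span 53365 bases, exons 3340), against compact ones such as Dbp (5116 and 2993). The order between genes below holds only if introns added few reads. On exon-length TPM in WT, Per1 stood highest at 231 ± 24.4 (SD, n = 5), followed by Cry1 at 47.7 ± 3.32, Nr1d2 at 45.4 ± 4.34 and Arntl at 35.6 ± 0.942. Cry1 and Nr1d2 did not differ beyond their spread. Clock was at 17.3 ± 0.931, and Dbp (9.97 ± 0.789), Per2 (9.44 ± 0.556), Nr1d1 (8.58 ± 0.919) and Cry2 (7.96 ± 0.750) formed a lower group in which neighbours overlapped. In Rig1 KO the order at the top changed on the same scale, with Nr1d2 at 51.1 ± 4.50 (SD, n = 4), Cry1 at 44.3 ± 4.44 and Per1 at 37.2 ± 3.06. Per1 in Rig1 KO thus ranked below Nr1d2 and Cry1, with which its range overlapped in the case of Cry1, and above Arntl at 28.9 ± 1.595.

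Of 12 genes next to the loop in 3 lists (activators and ROR receptors, repressors, D-box factors), 6 were tested, of which 2 rose and 3 fell. Shares over all tested genes were 33.5% higher and 12.2% lower. Nfil3 encodes a repressor that competes with DBP for D-box sites. It was at 15.8, 13.1, 11.8, 17.01 and 15.7 TPM in WT and at 3.56, 4.51, 3.87 and 2.82 TPM in Rig1 KO, with no overlap, and fell 3.98-fold (log2 fold change -1.74, SE 0.128, adjusted p = 2.80e-06). Tef, a D-box activator related to Dbp, rose from 19.3 ± 1.39 TPM (SD, n = 5) to 29.1 ± 3.37 TPM (SD, n = 4) without overlap (0.56, SE 0.084, adjusted p = 3.67e-04). It remained higher after median ratio scaling (0.44, adjusted p = 3.44e-04). Hlf, the remaining member of that family, missed the filter at 0.226 ± 0.111 TPM in WT against 0.689 ± 0.175 TPM in Rig1 KO. Its recovered reads ran from 4 to 31 per WT library and from 45 to 65 per Rig1 KO library, and a fit without the filter gave 0.46 (adjusted p = 0.00414).

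Bhlhe40 and Bhlhe41 (DEC1 and DEC2) encode repressors that bind E-boxes against BMAL1 and CLOCK. Bhlhe40 was at 137, 124, 173, 174 and 267 TPM in WT and at 57.4, 47.7, 54.4 and 47.6 TPM in Rig1 KO. The groups were apart, WT 5 was highest as for Per1, and the fall was 3.38-fold (log2 fold change -1.69, SE 0.187, adjusted p = 5.0e-05). Bhlhe41 fell from 4.06 ± 1.84 TPM to 0.927 ± 1.06 TPM (log2 fold change -1.47, SE 0.351, adjusted p = 0.00624), with overlapping ranges, 23 to 68 recovered reads per WT library and at most 23 per Rig1 KO library. It was listed at 0 in Rig1 KO 1. Bhlhe41 was highest in WT 5, the library highest in B cell markers, and with their mean as a covariate its log2 fold change was -0.17 (adjusted p = 0.780). After the same adjustment Nfil3 was at -1.48 (adjusted p = 0.00134) and Bhlhe40 at -1.25 (adjusted p = 0.0143).

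Tipin and Timeless encode partners in replication fork protection, the latter named for a fly clock gene. Tipin rose from 7.81 ± 0.767 TPM to 12.3 ± 1.18 TPM (0.60, SE 0.088, adjusted p = 3.38e-04) and Timeless was at 24.9 ± 0.403 and 23.3 ± 0.983 TPM (adjusted p = 0.179). Of the receptors that activate Arntl through ROR elements, Rora missed the filter, at 0.532 ± 0.0517 TPM and 0.758 ± 0.133 TPM, but has a long gene and 509 recovered reads or more in every library; without the filter its log2 fold change was 0.20 (adjusted p = 0.0329). Npas2, the substitute for Clock in other tissues, Arntl2 and Rorb stayed below 0.21 TPM in every library.

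Transcript levels were compared for 12 genes of the cAMP and glucocorticoid routes, which reach Per1 from outside the loop. These levels do not measure the signals themselves, and the part of the routes in the Per1 fall was not tested. All 12 genes passed the filter, and 0 rose and 4 fell (1 and 4 at an unadjusted p under 0.05 in the limma fit). The shares over all tested genes were 33.5% higher and 12.2% lower. After median ratio scaling 0 of the 12 rose and 6 fell, beside 23.7% and 21.5% of all genes. Sik1, a kinase that cAMP and calcium induce and that limits resetting of the clock, was at 551, 514, 537, 503 and 566 TPM in WT and at 18.3, 24.2, 18.3 and 19.8 TPM in Rig1 KO, a 26.5-fold fall (log2 fold change -4.67, SE 0.081, adjusted p = 9.90e-11). Rasd1, a small GTPase gene named for its induction by the glucocorticoid dexamethasone, was at 14.0 ± 2.96 TPM in WT. In Rig1 KO it was listed at 0 in 1 library and had 1 to 3 recovered reads in each of the others, against 29 to 48 in WT. Crem, a CREB family gene that cAMP induces, was at 4.33 ± 0.378 TPM in WT against 2.01 ± 0.153 TPM in Rig1 KO and fell by 0.82 on the log2 scale (adjusted p = 3.23e-05). Sik3, a related kinase gene, fell by 0.19 (adjusted p = 0.0368), a call lost without any 1 of the WT libraries, Rig1 KO 1 or Rig1 KO 2 (adjusted p = 0.0991 without Rig1 KO 1).

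The remaining 8 genes of the cue routes did not pass. Named after their values were seen, Creb1, the factor itself, was at 42.0 ± 2.24 TPM in WT against 43.6 ± 4.61 TPM in Rig1 KO (adjusted p = 0.616), and Nr3c1, the glucocorticoid receptor, at 14.9 ± 0.793 and 16.9 ± 2.11 TPM (adjusted p = 0.127). Fkbp5, a gene that glucocorticoids induce, was at 6.45 ± 0.517 and 7.78 ± 0.848 TPM (log2 fold change 0.23, adjusted p = 0.0516). Tsc22d3, also induced by glucocorticoids, is not a gene of the cue list but is counted among the output genes below. It fell from 54.5 ± 3.76 to 43.7 ± 5.83 TPM (log2 fold change -0.32, adjusted p = 0.0133). After adjustment for the B cell marker mean its log2 fold change was -0.15 and did not pass (adjusted p = 0.487).

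**Figure D4:**
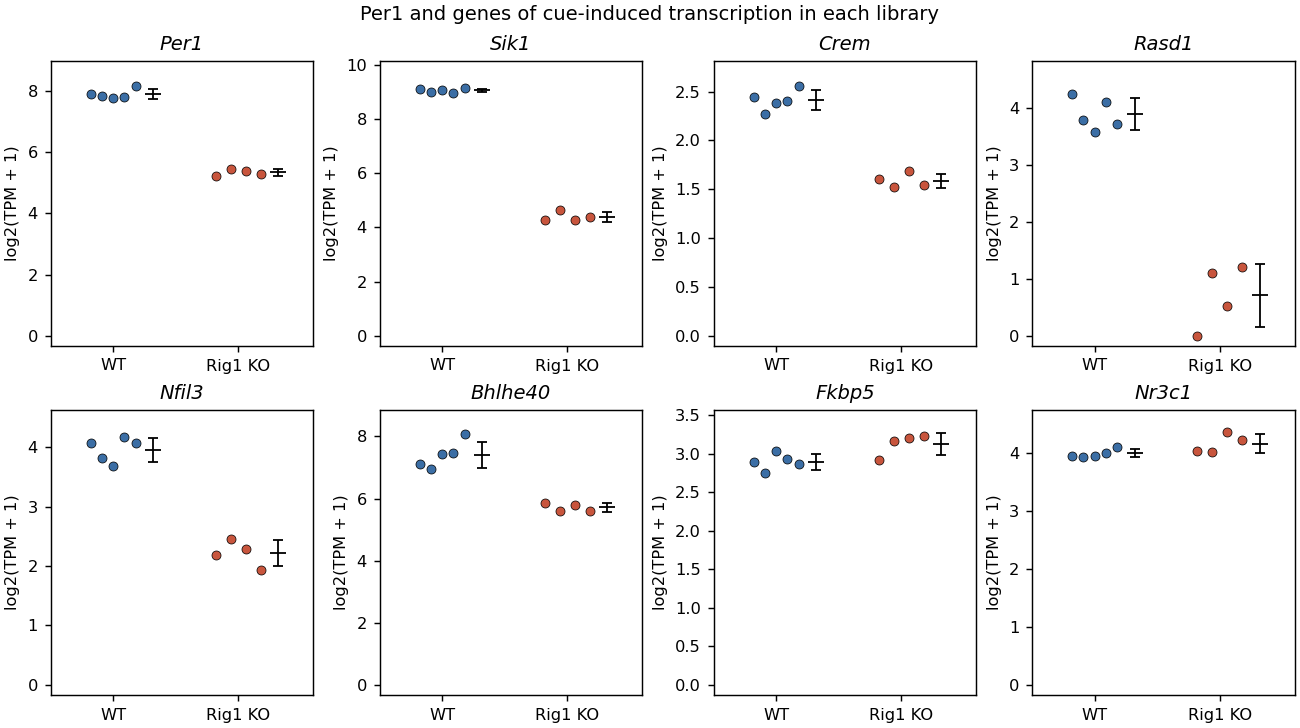
Log2(TPM + 1) (vertical axes) of Per1, of genes that cues induce (Sik1, Crem, Rasd1, Fkbp5), of the loop repressors Nfil3 and Bhlhe40 and of the glucocorticoid receptor gene Nr3c1 in each WT (blue) and Rig1 KO (red) library, with mean and SD in black. Sik1, Crem, Rasd1, Nfil3 and Bhlhe40 separate the groups in the direction of Per1, and Fkbp5 and Nr3c1 overlap.

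By profile over the 9 libraries (root mean square distance between log2(TPM + 1) values centred on each gene's mean), the tested genes nearest to Per1 were Fosl2 and Gla. Fosl2, an AP-1 subunit, was at a distance of 0.111 and went from 111 ± 7.09 to 19.2 ± 1.07 TPM. Gla, the lysosomal alpha-galactosidase, was at a distance of 0.115 and went from 35.4 ± 3.11 to 5.88 ± 0.603 TPM. Nearest to Arntl were Epc1, a chromatin gene (distance 0.0321, 27.6 ± 0.659 to 23.2 ± 1.86 TPM), and Mapkap1 (distance 0.0336, 4.36 ± 0.100 to 3.53 ± 0.381 TPM).

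Of 13 tested kinases and ubiquitin ligases that set the stability of PER and CRY, 3 rose and 1 fell, beside 33.5% higher and 12.2% lower among all tested genes. The median log2 fold change of these 13 was 0.06, against 0.125 over all tested genes. Csnk1d, the casein kinase 1 delta that marks PER proteins, went from 76.0 ± 4.10 to 87.3 ± 4.76 TPM (0.20, adjusted p = 0.0176). Csnk2b (0.25) and Csnk2a1 (0.20), subunits of casein kinase 2, rose as well (adjusted p = 0.0134 and 0.0355), and the ligase gene Fbxw11 fell (-0.25, adjusted p = 0.0403). The Csnk1d call was lost without Rig1 KO 4 (adjusted p = 0.053). That of Csnk2a1 was lost without WT 2, WT 5, Rig1 KO 1, Rig1 KO 3 or Rig1 KO 4, with adjusted p up to 0.0969. The Fbxw11 call was lost without any WT library but WT 2 and without Rig1 KO 1, 2 or 4 (adjusted p = 0.109 without Rig1 KO 1). None of the 3 rises passed after median ratio scaling, where 0 of these genes rose and 5 fell, beside 23.7% and 21.5% of all genes.

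Of 17 genes listed as chromatin cofactors of the clock, 3 rose and 4 fell. Shares over all tested genes were 33.5% higher and 12.2% lower. After median ratio scaling 3 of the 17 rose and 7 fell, beside 23.7% and 21.5% of all genes. Sirt1, a deacetylase that acts on clock proteins, fell from 18.4 ± 0.910 to 11.4 ± 0.788 TPM (-0.65, adjusted p = 3.08e-05). Sfpq, a PER-associated repressor, fell from 817 ± 45.2 to 536 ± 61.6 TPM (-0.61, adjusted p = 1.27e-04). Sirt6, a histone deacetylase gene, rose from 62.9 ± 5.23 to 90.2 ± 8.98 TPM (0.51, adjusted p = 4.89e-04). The 3 rises include that of Trap1 (0.30), which the list named although it is a mitochondrial chaperone gene.

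Of 9 tested output genes, 1 rose and 3 fell, beside 33.5% higher and 12.2% lower among all tested genes. After median ratio scaling 1 of the 9 rose and 6 fell, beside 23.7% and 21.5% of all genes. Coq10b, a coenzyme Q binding protein gene, fell 2.55-fold from 21.1 ± 1.77 to 8.29 ± 0.744 TPM (-1.25, adjusted p = 1.11e-06). Rbm3, induced by mild cold, fell from 523 ± 34.9 to 404 ± 62.1 TPM (-0.38, adjusted p = 0.00834), whereas the other cold-induced gene Cirbp, named after its values were seen, was at 137 ± 8.26 and 138 ± 17.97 TPM. Pik3ip1, an inhibitor of PI3 kinase, rose from 105 ± 5.69 to 154 ± 13.3 TPM (0.55, adjusted p = 1.03e-04). Over all 57 tested genes of the surrounding lists, 9 rose and 15 fell. Median ratio scaling turned these counts into 6 and 28, and the shares over all genes into 23.7% higher and 21.5% lower.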

How the data were processed

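Poly(A) RNA was sequenced in 9 libraries. The deposited values are TPM, 1 column per library, per the file headers; fastp, featureCounts and the build GRCm39 are named in the submitters' processing notes, without tool versions. For the aligner, annotation and counting mode, nothing is given in the sources used here. TPM sums to 1e+06 in each library. Values kept enough digits to recover the smallest whole reads in the same ratios (relative tolerance 2e-12) for 100% of genes; simulated reads were recovered in 100% of 6000 genes, up to a common divisor. For 96.6% of 17478 genes the implied length was within 1% of the genomic span (GENCODE M21, used for names, lengths, exons and overlapping genes only), so TPM is not comparable between genes; exon-length TPM was computed from the recovered reads.

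The limma fit took genes that reached a TPM of 1 in 4 or more libraries, on log2(TPM + 1) (limma 3.58.1, R 4.3.3). It had a mean-variance trend and no covariates, and was two-sided with Benjamini-Hochberg at 0.05. A run on simulated reads changed far fewer genes, evenly up and down, so it did not cover a shift as broad as the one here. Alternatives were a pseudocount of 0.1 or 0.5, testing without the filter or with a minimum mean TPM of 5, scaling by median ratio or quantiles, CPM of recovered reads, each library left out, WT 4 and WT 5 left out, the mean of 8 B cell markers as a covariate and a replicate block. Promoters came from RefSeq (GRCm38.p6).

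The clock genes and the lists were chosen with earlier results of these data known; 1 gene is not reported here and was left out of the lists. Named were all clock genes, Ddx58, the listed genes nearest the loop, up to 4 genes with the smallest p of each other list, and the nearest profiles of called clock genes.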

Additional observations from a re-analysis of the deposited data

Results flagged for a closer look

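A library far from the rest of its group was sought in 102 groups of values (the named genes and the clock gene ratios, 4 or 5 libraries each) by the gap to the nearest library over the whole range; chance flags about 1 in 20 groups, and 2 were found. Dbp in WT 3, at 17.9 TPM, lay above the other WT libraries (14.96 to 15.7 TPM). Csnk2b in Rig1 KO 2, at 136 TPM, lay below 156 to 159 TPM in the other Rig1 KO libraries.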

How the results depend on the processing

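Ddx58 and Per1 kept their direction and their call under every alternative run. Without each library in turn, the clock genes called lower ranged from 1 to 2 and those called higher from 0 to 1 (Clock without Rig1 KO 2, Nr1d2 without Rig1 KO 1). The clock genes called lower numbered 4 after quantile normalization (Cry1 and Cry2 added), and 1, Per1, without WT 4 and WT 5, after adjustment for the B cell marker mean and with the replicate block. Directions reversed with the B cell covariate for Cry2 (0.000708), Nr1d1 (-0.0956) and Dbp (-0.0327), with quantile normalization for Nr1d1 (-0.0412) and Dbp (-0.0383), and for Nr1d1 with median ratio scaling (-0.000892) and without Rig1 KO 4 (-0.0342, with 0.1952 the highest value without a library); none passed the test.

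Over all genes, 4817 were called (3526 higher, 1291 lower). With the B cell covariate 2639 were called (2074 higher, 565 lower). Median ratio scaling gave 2491 higher and 2266 lower, quantile normalization 2192 lower and CPM 2128 lower. The surrounding clock genes called lower numbered 28, 27 and 27 under these 3 scalings in turn and 9 with the covariate, against 15. Of 660 values of single named genes under alternatives, 591 kept direction and call, 53 lost the call, 9 gained it and 7 reversed. Correlations of deviations from the group means between same-numbered libraries ran from -0.0996 to 0.0972. Of 4 WT libraries, 1 correlated best with its own number. So few libraries cannot exclude a weak pairing by replicate number, and the labels give none. The replicate block, with WT 5 left out, gave 4755 genes called and an adjusted p of 0.0589 for Arntl. Among the clock genes, depth limits Nr1d1 and Dbp most, at 88 to 141 recovered reads per library.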
